A study of Mus musculus with 6 samples.

Results

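The genes described are those of cholesterol synthesis, of its control by the SREBP transcription factors and of sterol transport. They were chosen by symbol, as a fixed list of 32 genes, and all 32 were found among the 19877 genes of the deposited table. Of these, 26 stand on the SREBP side (19 synthesis enzymes, 5 genes of SREBP control, and Stard4 and Soat1) and 6 on the LXR side (Nr1h2, Nr1h3, Abca1, Abcg1, Apoe and Mylip). Their RNA was compared between mouse ADSCs carrying a hairpin against Ifit1 (knockdown, 3 libraries) and ADSCs carrying a scrambled hairpin (3 libraries). Both groups are labelled wild type, and batches 1, 2 and 3 of the labels each hold 1 knockdown and 1 scrambled library. The labels do not spell out ADSC, a common short form for adipose-derived stromal cells, which are grown from fat and can form fat, bone and cartilage cells. They give neither age nor the position that the hairpin targets. They also do not tie the libraries of a group to separate cultures or animals, so each p-value reflects only how far these libraries scatter, and that scatter may be technical.

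Cells make cholesterol from acetyl-CoA through mevalonate, isoprenoid phosphates, squalene and lanosterol. SREBP proteins sit in the membrane of the endoplasmic reticulum, where INSIG proteins retain them while sterols are plentiful. When sterols run low, SCAP escorts them to the Golgi, proteases release the active factor, and genes of sterol synthesis and lipoprotein uptake are switched on. LXR receptors act on the other side: bound by oxysterols, they switch on genes that export cholesterol or limit its uptake.

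The targeted gene Ifit1, an interferon-induced RNA-binding protein, was lower in every knockdown library. It had 1.76, 1.48 and 1.51 FPKM in knockdown libraries, against 4.90, 3.75 and 4.97 FPKM in scrambled libraries (log2 fold change −1.27 ± 0.11 SE, limma adjusted p = 5.71e-05). The values correspond to 32.2 to 40.2 M fragments per knockdown library and 37.1 to 40.6 M per scrambled library. Knockdown libraries listed 3476 to 3868 genes at 0, against 3013 to 3188 for scrambled libraries, and the part of this in the values of low genes such as Abcg1 and Nr1h3 was not tested. The 10 stromal markers summed to 3224 to 3423 FPKM in knockdown and 3889 to 4073 FPKM in scrambled libraries. Most of it was Vim, higher in every knockdown library, and Col1a1 and Col1a2, lower in every knockdown library. Nt5e, Pdgfra and Eng were low, at 2.18 FPKM or less. Of 9 stromal markers tested, 2 were up and 7 down, beside 19.8% up and 31.1% down of all 10311 tested genes. The macrophage markers read (5 of 8) summed to 1.73 to 2.17 FPKM in knockdown and 1.94 to 2.39 FPKM in scrambled libraries, nearly all of it Cd68, with 0 called of 1 tested, and the 5 endothelial markers read of 6 to at most 0.0984 and 0.102 FPKM. Adipocyte markers (3 read of 6) summed to 3.66 to 4.86 FPKM in knockdown and 4.42 to 5.43 FPKM in scrambled libraries, with 0 called of 1 tested. Epithelial and mesothelial markers (6) summed to 13.7 to 18.8 FPKM in knockdown and 19.3 to 27.5 FPKM in scrambled libraries, nearly all of it Msln, with 1 down of 1 tested, and the part of the stromal and epithelial markers in the sterol results was not tested. In bulk RNA, fewer cells of a type and less RNA per cell cannot be told apart.

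Synthesis and control genes were mostly lower in knockdown cells. Of the 26 SREBP-side genes, all of which were abundant enough to test, 22 fell, 2 rose (Idi1 and Soat1) and 2 did not pass the threshold (Hsd17b7 and Scap; limma, adjusted p under 0.05). The falls ran from 9.33% to 40.6% of the scrambled mean, with a median of 27.3%. Over all 10311 tested genes, 31.1% fell, 19.8% rose and 51.0% passed in either direction, against 84.6% of SREBP-side genes that fell. The median log2 fold change, knockdown minus scrambled on the log2(FPKM + 0.5) scale, was −0.36 for the SREBP-side genes and −0.05 for all tested genes. On the LXR side 3 genes reached the minimum level for testing (1 FPKM in at least 3 of 6 libraries), and each of them fell. Apoe lay just under that minimum and had higher values in knockdown.

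**Figure D1:**
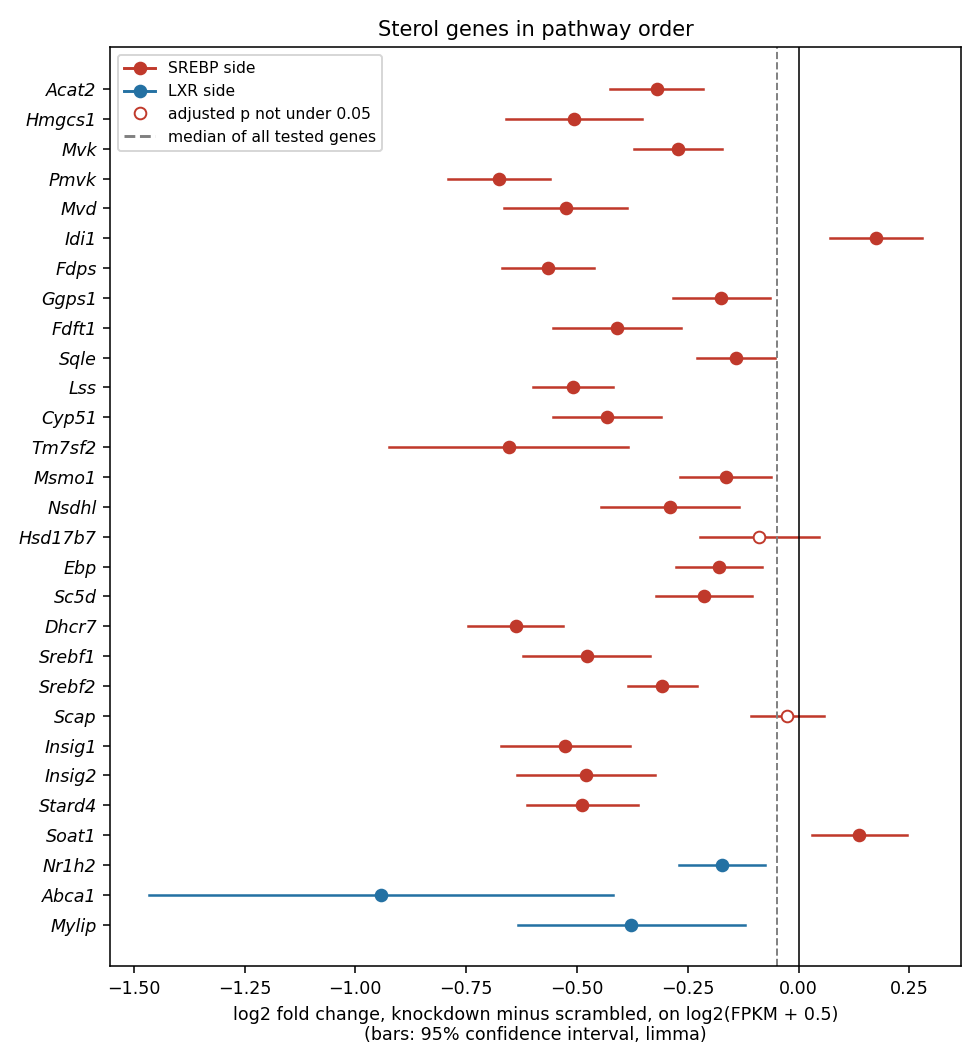
Log2 fold change of the 29 tested sterol genes, knockdown minus scrambled, in the order of the pathway, with 95% confidence intervals. Filled points passed the threshold. Of them, 25 lie left of 0 and Idi1 and Soat1 lie right of it, where 31.1% of all tested genes fell and 19.8% rose.

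Promoters of 5 of these genes are shown as examples. Hmgcs1, Insig1 and Srebf2 fell with most of the SREBP side, and Idi1 rose against it. Abca1 was the LXR-side gene with the largest fall among the 3 tested. Hmgcs1 and Idi1 were picked after their values were seen. Windows of Pmvk, with the lowest log2 fold change of the SREBP side, and of Insig2, Srebf1, Nr1h2 and Nr1h3 are not shown. The 5 therefore do not represent either side. Sequences are RefSeq promoter windows of GRCm38.p6, from 250 bases before to 50 bases after the annotated start, written 5′ to 3′ on the gene's strand. Capitals mark 5 motifs on either strand. The motif CACNCCAC is a core of sterol regulatory elements, and the palindrome CACGTG is called the E-box. NF-Y binds the letters CCAAT and Sp factors bind the GC box, written GGGCGG. The last, AGGTCA, is the hexamer of nuclear receptor sites. In Insig1 AGGTCA and CACGTG overlap and print as 1 run of capitals.
Hmgcs1, chr13:119690101-119690400, plus strand: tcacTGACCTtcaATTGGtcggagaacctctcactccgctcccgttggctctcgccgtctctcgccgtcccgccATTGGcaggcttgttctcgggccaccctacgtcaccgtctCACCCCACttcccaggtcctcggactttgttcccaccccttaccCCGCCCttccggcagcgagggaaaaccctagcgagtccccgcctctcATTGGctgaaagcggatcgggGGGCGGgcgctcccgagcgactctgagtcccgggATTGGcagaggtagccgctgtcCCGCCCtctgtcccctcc
Insig1, chr5:28071162-28071461, plus strand: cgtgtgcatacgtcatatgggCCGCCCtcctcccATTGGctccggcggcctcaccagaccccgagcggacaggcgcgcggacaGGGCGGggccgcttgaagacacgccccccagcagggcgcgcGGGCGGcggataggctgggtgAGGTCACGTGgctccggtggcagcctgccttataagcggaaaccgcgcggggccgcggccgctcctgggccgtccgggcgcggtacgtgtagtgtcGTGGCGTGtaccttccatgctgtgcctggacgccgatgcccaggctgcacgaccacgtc
Srebf2, chr15:82147019-82147318, plus strand: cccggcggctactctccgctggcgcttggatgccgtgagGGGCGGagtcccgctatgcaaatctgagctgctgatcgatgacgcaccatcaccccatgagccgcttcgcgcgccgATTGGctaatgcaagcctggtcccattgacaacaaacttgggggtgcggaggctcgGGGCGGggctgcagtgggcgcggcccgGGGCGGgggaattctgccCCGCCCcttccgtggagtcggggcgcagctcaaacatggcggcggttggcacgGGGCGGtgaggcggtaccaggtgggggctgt
Idi1, chr13:8885356-8885655, plus strand: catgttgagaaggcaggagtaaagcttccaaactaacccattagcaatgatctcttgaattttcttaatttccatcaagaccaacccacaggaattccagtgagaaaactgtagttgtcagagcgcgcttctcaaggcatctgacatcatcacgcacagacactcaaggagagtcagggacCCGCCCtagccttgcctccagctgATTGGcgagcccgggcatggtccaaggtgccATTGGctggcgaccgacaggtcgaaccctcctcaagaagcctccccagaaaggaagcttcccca
Abca1, chr4:53159846-53160145, minus strand: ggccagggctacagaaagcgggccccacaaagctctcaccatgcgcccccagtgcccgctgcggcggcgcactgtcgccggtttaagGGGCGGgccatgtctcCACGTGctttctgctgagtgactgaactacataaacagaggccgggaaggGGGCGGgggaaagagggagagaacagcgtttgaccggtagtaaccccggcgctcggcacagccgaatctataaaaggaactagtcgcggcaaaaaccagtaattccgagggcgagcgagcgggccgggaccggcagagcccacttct

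The Hmgcs1 window held 1 match of CACNCCAC, 4 of CCAAT, 3 of the GC box and 1 of AGGTCA, and the Insig1 window 1 of CACNCCAC, 1 E-box, 1 of CCAAT, 3 of the GC box and 1 of AGGTCA. The Srebf2 window held 1 of CCAAT and 5 of the GC box, the Idi1 window 2 of CCAAT and 1 of the GC box, and the Abca1 window 1 E-box and 2 of the GC box. The letters CCAAT were common in the SREBP-side windows. Of 22 SREBP-side genes with at least 1 window in the RefSeq table (30 windows), 20 held CCAAT (90.9%), against 43.5% of 8239 tested genes with a window. The GC box stood in 20 of 22 (90.9%), against 72.7% of tested genes. CACNCCAC stood in 3 (Acat2, Hmgcs1 and Insig1; 13.6%, against 7.42%) and the E-box in 5 (22.7%, against 12.3%). AGGTCA stood in 3 SREBP-side genes (13.6%, against 13.9% of tested genes). Of the 5 LXR-side genes with a window (8 windows), CCAAT stood in Mylip only and CACNCCAC and AGGTCA in 0. The GC box stood in Abca1 and Mylip (40.0%, against 72.7%) and the E-box in Abca1 (20.0%, against 12.3%). With 5 genes, these shares are not read as a difference from the tested genes. The letters did not part the directions: CCAAT stood in 17 of the 18 SREBP-side genes that fell and have a window, and also in Idi1 and Soat1, which rose. A match says only that the letters are there, and binding was not measured. Only these exact letters were searched, so sites with other letters are neither marked nor counted. A window without AGGTCA may still hold a nuclear receptor site.

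Every enzyme from acetoacetyl-CoA to isopentenyl diphosphate that was examined fell (5 of 5), where 31.1% of all tested genes fell. Acat2, the thiolase that joins acetyl units, averaged 45.6 ± 0.958 FPKM in knockdown and 57.2 ± 3.67 FPKM in scrambled cells (SD, n = 3 each). Hmgcs1, which makes HMG-CoA, had 42.2, 49.3 and 48.8 FPKM in knockdown libraries 1, 2 and 3, against 65.3, 62.6 and 71.9 FPKM in scrambled libraries 1, 2 and 3. The ranges of the groups did not overlap, and the log2 fold change was −0.51 ± 0.07 (SE; limma adjusted p = 0.000445). Mvk, the mevalonate kinase, fell by 17.6% of the scrambled mean. Pmvk, the kinase that follows it, had 7.01, 7.39 and 7.82 FPKM in knockdown libraries, against 12.1, 12.5 and 11.8 FPKM in scrambled libraries. Its log2 fold change of −0.68 ± 0.05 (adjusted p = 3.49e-05) was the largest fall of the SREBP side on that scale, and 3.57% of tested genes had a lower value. Mvd, the decarboxylase that yields isopentenyl diphosphate, had 18.1, 19.4 and 20.1 FPKM in knockdown libraries, against 27.4, 25.9 and 30.3 FPKM in scrambled libraries (−0.53 ± 0.06, adjusted p = 0.000223).

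The isoprenoid step split. Idi1, which interconverts the isopentenyl and dimethylallyl diphosphates, had 17.4, 19.2 and 18.5 FPKM in knockdown libraries, against 16.6, 15.6 and 16.4 FPKM in scrambled libraries. Every knockdown library was above every scrambled one, by a small amount: the log2 fold change was 0.18 ± 0.05 (adjusted p = 0.0118), and within batches 1, 2 and 3 the difference was 0.07, 0.29 and 0.17. It passed in all 17 alternatives, with an adjusted p between 0.00189 and 0.0459. Fdps, the next enzyme and the most abundant of the 19 in FPKM, went the other way. It had 116, 130.03 and 124 FPKM in knockdown libraries, against 181, 176 and 192 FPKM in scrambled libraries (−0.57 ± 0.05, adjusted p = 5.07e-05). Ggps1, which makes the geranylgeranyl donor for protein prenylation, stood at 5.22 ± 0.0575 FPKM in knockdown and 5.95 ± 0.181 FPKM in scrambled cells (−0.17, adjusted p = 0.0152). Its call was lost under median centring (adjusted p = 0.1003), quantile normalization (0.316), with the level trend removed (0.223) and without scrambled library 2 (0.0599).

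The squalene and lanosterol enzymes fell, Sqle least, where 31.1% of all tested genes fell. Fdft1, squalene synthase, averaged 9.54 ± 0.684 FPKM in knockdown and 12.8 ± 0.818 FPKM in scrambled cells. Lss, lanosterol synthase, had 10.1, 10.2 and 10.2 FPKM in knockdown libraries, against 14.3, 14.5 and 15.2 FPKM in scrambled libraries, with a log2 fold change of −0.51 ± 0.04 (adjusted p = 4.29e-05). Its knockdown values spread by only 0.0868 FPKM (SD). Sqle, the squalene epoxidase and a control point of the pathway, had 67.9, 74.0 and 72.7 FPKM in knockdown libraries, against 77.7, 77.8 and 81.2 FPKM in scrambled libraries. The groups did not overlap, but the fall was 9.33% (−0.14 ± 0.04, adjusted p = 0.0145), and the call was lost under median centring (0.120) and without scrambled library 3 (0.0511).

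Of the 8 enzymes that turn lanosterol into cholesterol, 7 fell, beside 31.1% of all tested genes. Dhcr7, the last reductase of the route through 7-dehydrocholesterol, had 5.24, 5.64 and 5.45 FPKM in knockdown libraries, against 8.96, 8.65 and 8.63 FPKM in scrambled libraries (−0.64 ± 0.05, adjusted p = 3.49e-05). Tm7sf2, a sterol C14 reductase, had 1.87, 2.81 and 2.02 FPKM in knockdown libraries, against 3.90, 3.51 and 3.86 FPKM in scrambled libraries (−0.65 ± 0.12). It rests on 102 to 236 fragments per library and had the widest interval of the SREBP side, and knockdown library 2 lay nearest to the scrambled ones. Cyp51, the lanosterol demethylase, fell by 26.1% and Nsdhl, a C4 decarboxylating dehydrogenase, by 18.6%. The falls of Sc5d (14.0%), Ebp (12.1%) and Msmo1 (10.9%), a desaturase, an isomerase and a C4 methyl oxidase, were smaller. Msmo1 lost its call under median centring (adjusted p = 0.0807), without the filter (0.0536) and without knockdown library 1 (0.0522), and Ebp under median centring (0.0511) and with limma-voom (0.0531). Hsd17b7, a 3-ketosteroid reductase, averaged 5.60 ± 0.235 FPKM in knockdown and 5.99 ± 0.370 FPKM in scrambled cells. The groups overlapped, and the 95% interval of its log2 difference ran from −0.22 to 0.05 (adjusted p = 0.239).

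Summed over the 19 enzymes, the level was 512.7, 556.6 and 549.0 FPKM in knockdown libraries 1, 2 and 3, against 687.5, 674.8 and 729.5 FPKM in scrambled libraries 1, 2 and 3. The knockdown mean was 22.6% lower. Among the 26 SREBP-side genes level and change were hardly related: across genes, which are not independent replicates and share the same 6 libraries, Pearson's r between mean log2 FPKM and log2 fold change was 0.08 and Spearman's rho 0.12.

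**Figure D2:**
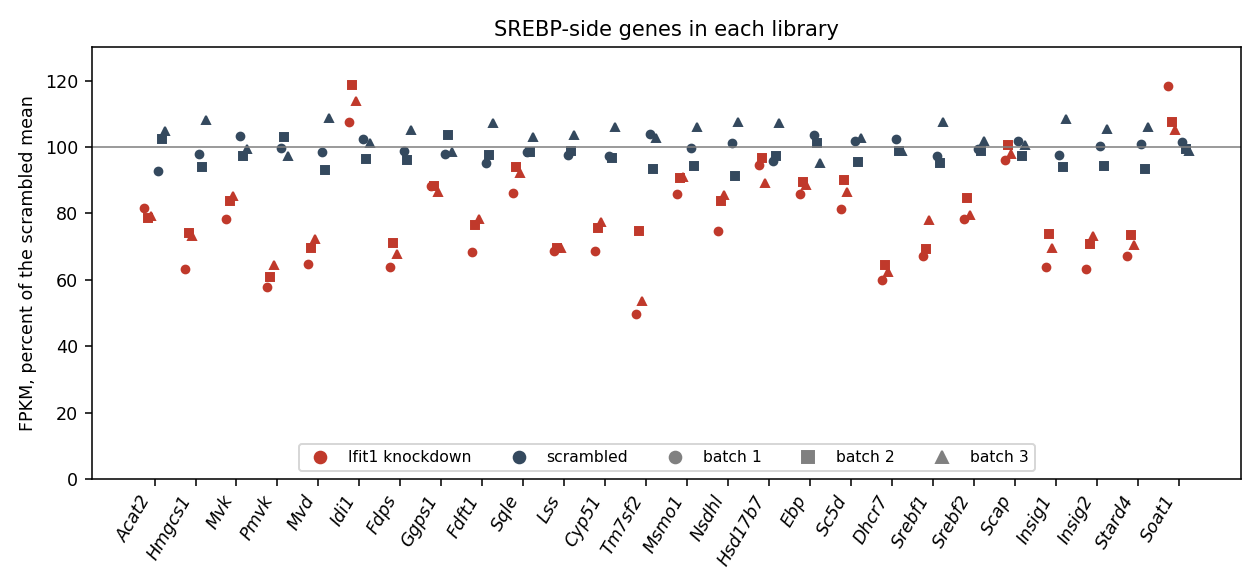
FPKM of the 26 SREBP-side genes in each library, as a percentage of the gene's mean in scrambled libraries (markers give the batch). For 22 genes the 3 knockdown values lie below the 3 scrambled values, and for Idi1 and Soat1 they lie above them; the groups of 61.1% of all tested genes do not overlap either.

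Both SREBP genes and both INSIG genes fell, as did 31.1% of all tested genes. Srebf2, whose product chiefly drives cholesterol genes, had 89.9, 97.4 and 91.5 FPKM in knockdown libraries, against 114, 114 and 117 FPKM in scrambled libraries (−0.31 ± 0.03, adjusted p = 0.000193). Srebf1, whose products act more on fatty acid genes and whose isoforms are not separated in the table, had 29.4, 30.3 and 34.1 FPKM in knockdown libraries, against 42.6, 41.7 and 47.0 FPKM in scrambled libraries (−0.48 ± 0.06, adjusted p = 0.000416). Neither gene's groups overlapped. Srebf2 was the more abundant per length in every library, 2.68 to 3.22 times Srebf1 in knockdown and 2.49 to 2.73 times in scrambled libraries.

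Insig1, an SREBP target as well as its retainer, had 31.8, 36.7 and 34.5 FPKM in knockdown libraries, against 48.5, 46.7 and 53.9 FPKM in scrambled libraries (−0.53 ± 0.06, adjusted p = 0.000280). Insig2, its less abundant relative, had 3.37, 3.78 and 3.90 FPKM in knockdown libraries, against 5.35, 5.02 and 5.62 FPKM in scrambled libraries (−0.48 ± 0.07, adjusted p = 0.000614). Both means were 30.9% lower in knockdown. Scap, the escort, stood apart, with 21.5, 22.5 and 21.9 FPKM in knockdown libraries, against 22.8, 21.8 and 22.5 FPKM in scrambled libraries. The groups overlapped, and the 95% interval of the log2 difference ran from −0.11 to 0.06 (adjusted p = 0.581).

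The pair of sterol handling genes on this side went opposite ways. Stard4, a cytosolic sterol carrier and SREBP target, had 10.9, 12.0 and 11.4 FPKM in knockdown libraries, against 16.4, 15.2 and 17.2 FPKM in scrambled libraries (−0.49 ± 0.05, adjusted p = 0.000190). Soat1, which esterifies cholesterol for storage, had 22.6, 20.6 and 20.1 FPKM in knockdown libraries, against 19.5, 19.1 and 18.9 FPKM in scrambled libraries (0.14 ± 0.05, adjusted p = 0.0381). The knockdown values of Soat1 all lay above the scrambled ones, yet its call was lost without the filter (0.0831), on TPM values (0.119), in a limma fit with no trend (0.0600), without knockdown library 1 (0.105) or 2 (0.0560) and without scrambled library 1 (0.0680), 2 (0.0917) or 3 (0.0960).

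The knockdown library was below its scrambled partner for 24, 23 and 24 of the 26 SREBP-side genes in batches 1, 2 and 3, with a median log2 difference of −0.44, −0.30 and −0.42. Over all 10311 tested genes it was below for 6189, 6056 and 5712, with a median of −0.06, −0.05 and −0.03.

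**Figure D3:**
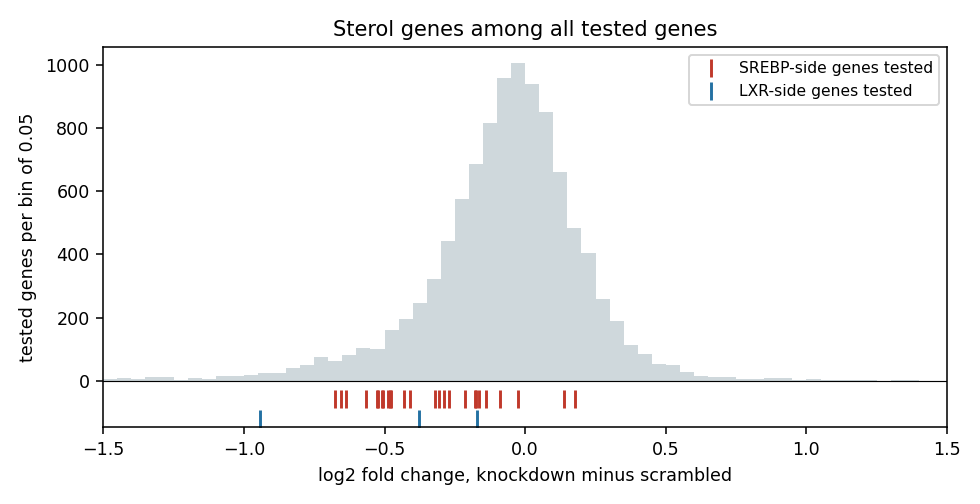
Log2 fold change, knockdown minus scrambled, of all tested genes in bins of 0.05 (grey; 28 genes beyond ±1.5 are not drawn), with 1 tick for each tested SREBP-side and LXR-side gene. The SREBP-side ticks centre on −0.36 and all tested genes on −0.05.

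LXR-side genes differed in level and direction. Nr1h2 (LXRβ) carried nearly all LXR RNA: it had 9.08, 8.60 and 9.08 FPKM in knockdown libraries, against 10.3, 9.89 and 10.2 FPKM in scrambled libraries. Its groups did not overlap (−0.17 ± 0.04, adjusted p = 0.00966), but the call was lost under median centring (0.0624), quantile normalization (0.0789) and with the level trend removed (0.0566). Nr1h3 (LXRα) was below the test's minimum, at 0.160, 0.195 and 0.302 FPKM in knockdown libraries, against 0.0775, 0.157 and 0.143 FPKM in scrambled libraries. These rest on 7 to 27 fragments, and without the filter the difference did not pass (0.20, adjusted p = 0.166).

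Abca1, which exports cholesterol to apolipoproteins, had 1.02, 1.16 and 1.99 FPKM in knockdown libraries 1, 2 and 3, against 2.53, 2.47 and 4.47 FPKM in scrambled libraries 1, 2 and 3. Both batch 3 libraries were the highest of their group, and the groups did not overlap. The log2 fold change of −0.94 ± 0.23 (adjusted p = 0.00877) was below that of every tested SREBP-side gene, the difference was −0.996, −0.834 and −0.997 within batches 1, 2 and 3, and the call was lost without the filter (adjusted p = 0.0544). Abcg1, the exporter to lipoprotein particles, was low and showed the same high batch 3 values: 0.144, 0.153 and 0.292 FPKM in knockdown libraries, against 0.164, 0.179 and 0.452 FPKM in scrambled libraries. Its groups overlapped, and it passed no test (without the filter, adjusted p = 0.640).

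Apoe, the apolipoprotein that carries exported cholesterol, had 1.00, 0.920 and 0.920 FPKM in knockdown libraries, against 0.581, 0.679 and 0.680 FPKM in scrambled libraries. Every knockdown value was above every scrambled value, on 58 to 91 fragments per library, and the gene passed in the only alternative that tested it, the fit without the filter (log2 fold change 0.34, adjusted p = 0.0175). Mylip, a ubiquitin ligase for lipoprotein receptors, had 2.11, 2.39 and 3.05 FPKM in knockdown libraries, against 3.45, 3.09 and 3.64 FPKM in scrambled libraries. Knockdown library 3 came close to scrambled library 2 without reaching it. The log2 fold change was −0.38 ± 0.11 (adjusted p = 0.0211), and the call was lost without the filter (0.0853), under quantile normalization (0.136), with the level trend removed (0.123), without knockdown library 1 (0.0649) or 2 (0.0653) and without scrambled library 1 (0.0612) or 3 (0.0721). Over the 6 LXR-side genes, the knockdown values lay wholly below the scrambled ones in 3, wholly above in 2 (Nr1h3 and Apoe) and overlapped in 1. Over all tested genes the groups did not overlap in 61.1%.

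**Figure D4:**
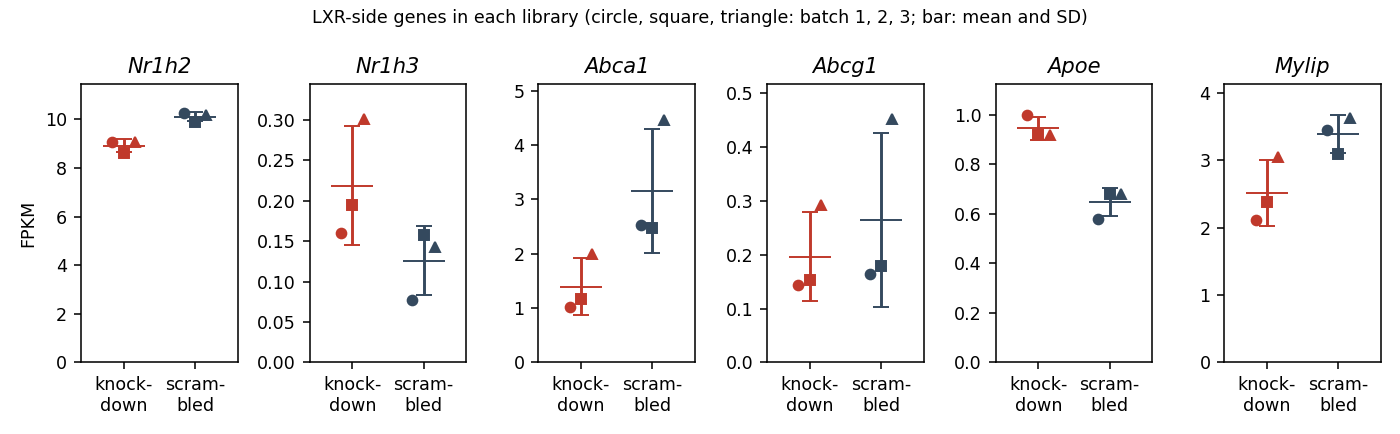
FPKM of the 6 LXR-side genes in each library, with the mean and SD of each group (n = 3 each) and the batch by marker. Abca1 runs from 1.02 to 1.99 FPKM in knockdown and from 2.47 to 4.47 FPKM in scrambled libraries, and Apoe lies higher in knockdown.

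A further list held 46 sterol genes, of which 45 were read. Of 39 tested, 20 fell, 4 rose and 15 did not pass, where 31.1% of all tested genes fell, 19.8% rose and 51.0% passed in either direction. The 20 include Vldlr and Soat2, which reached the minimum level for testing only through the scrambled libraries. The median log2 fold change of the list was −0.13. Of 8 genes for SREBP processing and sterol sensing, 1 fell (the protease gene Mbtps1, −0.23), 2 rose and 5 did not pass. Those that rose were Erlin1 (0.12, adjusted p = 0.0238), an endoplasmic reticulum scaffold protein, and Tmem97, the sigma-2 receptor, with 92.2, 85.8 and 81.6 FPKM in knockdown libraries, against 75.6, 73.2 and 74.97 FPKM in scrambled libraries (0.21, adjusted p = 0.00379). The call of Erlin1 was lost after rescaling to TPM (0.119), without knockdown library 1 (0.0773) or 2 (0.0522) and without scrambled library 1 (0.0912).

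Lipoprotein uptake genes went both ways. Vldlr, the very low density lipoprotein receptor, had 0.612, 0.726 and 0.729 FPKM in knockdown libraries, against 3.14, 2.76 and 3.64 FPKM in scrambled libraries. The gene reached the minimum level for testing only through the scrambled libraries, so its place among the tested genes is not read. The scrambled mean was 4.62 times the knockdown mean (log2 fold change −1.63 ± 0.10, adjusted p = 2.1e-05), and without the filter it also passed (adjusted p = 0.00122). Lrp1, a large endocytic receptor, fell (−0.37, adjusted p = 0.000202), while Lrp8, the apolipoprotein E receptor 2, rose (0.21, adjusted p = 0.0120). Scarb1, the receptor for high density lipoprotein, averaged 24.5 ± 0.371 FPKM in knockdown and 24.3 ± 0.402 FPKM in scrambled cells, with a 95% interval of the log2 difference from −0.06 to 0.09; it is named outside the rule, after its values were seen.

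Enzymes of esterification, hydrolysis and side branches were also measured. Soat2, the second sterol esterifying enzyme, had 0.242, 0.318 and 0.441 FPKM in knockdown libraries, against 1.05, 1.04 and 1.41 FPKM in scrambled libraries. It was low in both groups, with 19 to 114 fragments per library, and reached the minimum level for testing only through the scrambled ones. It fell (−0.999 ± 0.133, adjusted p = 0.000433) and also passed without the filter (adjusted p = 0.00435). The size of its fall depends on the settings: the scrambled mean was 3.50 times the knockdown mean, and the log2 fold change ran from −1.75 with limma-voom to −0.56 under quantile normalization, with −1.56 at a pseudocount of 0.1. Lipa, the lysosomal cholesteryl ester hydrolase, fell (−0.54, adjusted p = 9.42e-05), as did Aacs, which activates acetoacetate for lipid synthesis (−0.28, adjusted p = 0.000382). The dolichol branch split between the subunits of 1 enzyme: Dhdds fell (8.998 ± 0.143 FPKM in knockdown and 12.1 ± 0.632 FPKM in scrambled cells, adjusted p = 0.000231) and its partner Nus1 rose (28.3 ± 1.08 FPKM in knockdown and 23.5 ± 0.684 FPKM in scrambled cells, adjusted p = 0.000832). Of 12 tested sterol transport genes, a set that includes Lipa and Soat2, 8 fell and 0 rose, beside 31.1% and 19.8% of all tested genes. Soat2 is among these 8, although it could be tested only through its scrambled values. Of 3 further LXR targets tested, the phospholipid genes Lpcat3 (−0.41) and Pltp (−0.62) fell, and Arl4c did not pass (−0.01, adjusted p = 0.889). Rxra and Rxrb, the receptors that pair with LXR, fell by 0.14 and 0.19 on the log2 scale (limma adjusted p = 0.0222 and 0.0223). Neither call held in every alternative, with a highest adjusted p of 0.174 for Rxra and 0.0890 for Rxrb. The oxysterol enzymes Ch25h, Cyp27a1 and Cyp7b1 were below the minimum level for testing. Without the filter Cyp27a1 passed (−0.54, adjusted p = 0.00469) on 2 to 35 fragments per library, and Ch25h (0.116) and Cyp7b1 (0.489) did not. These 8 genes are named outside the rule, after their values were seen.

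**Figure D5:**
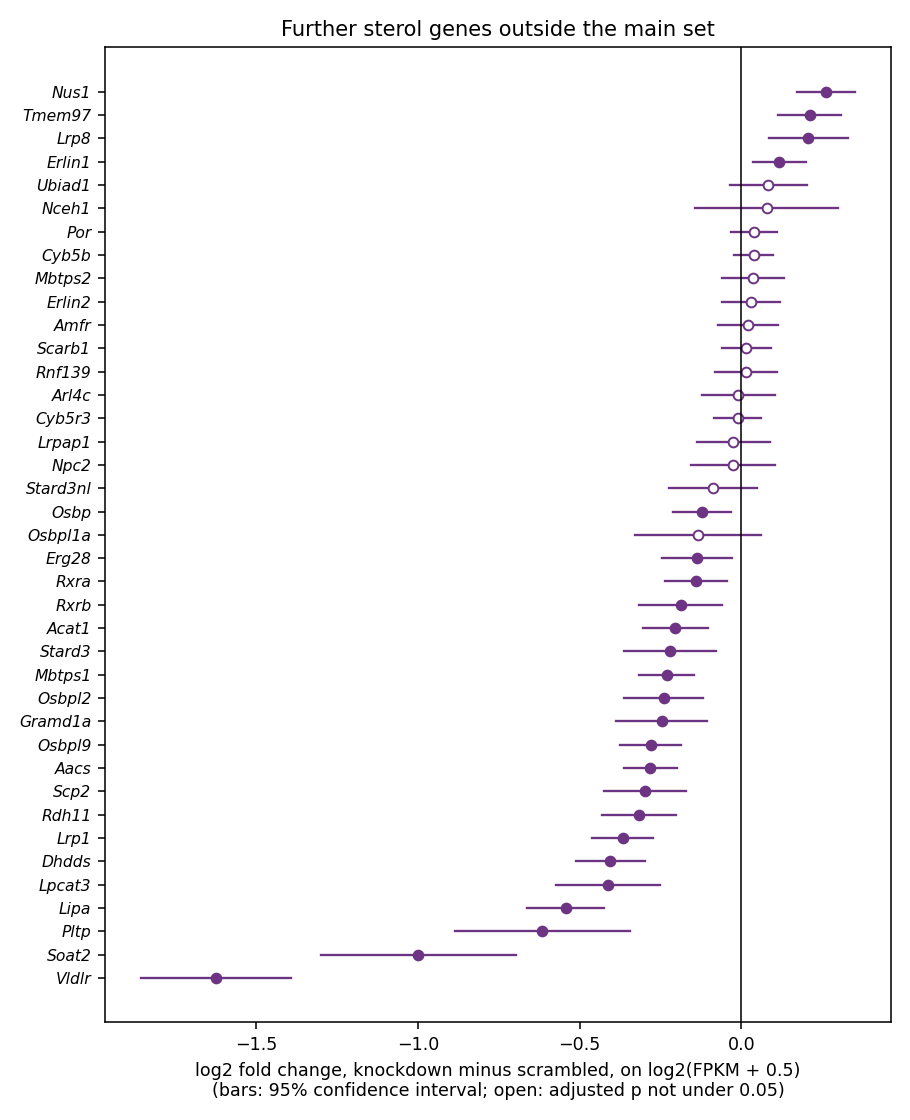
Log2 fold change, knockdown minus scrambled, of the 39 tested genes of the further sterol list, from highest to lowest, with 95% confidence intervals. Filled points passed the threshold: 4 right of 0 (Nus1, Tmem97, Lrp8 and Erlin1) and 20 left of it.

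Some of these genes share exonic bases with another gene, and whether the counting used strand is not known from the labels. In GENCODE M21 on GRCm38, 5 of the 32 do so with a gene of the table: Fdft1 with Ctsb (774 bases, opposite strand), Tm7sf2 with Vps51 (532, same strand), Ggps1 with Arid4b (257, opposite), Cyp51 with Akap9 (166, opposite) and Srebf1 with Rai1 (109, opposite). Ctsb, a lysosomal protease gene, averaged 85.1 ± 3.50 FPKM in knockdown and 93.0 ± 3.08 FPKM in scrambled cells, and if the counting did not use strand, reads of Fdft1 and Ctsb cannot be told apart where they overlap. In all, 11 of the 32 share exonic bases with another annotated gene. The others include Fdps, with 1124 bases shared with the protein-coding Gm43738 on the same strand, and Scap (985 bases) and Hmgcs1 (557 bases), each with a gene on the opposite strand. Values of these 11 genes are uncertain to that extent.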

How the data were processed

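Messenger RNA of 6 libraries was captured on beads, fragmented by heat and made into libraries, per the labels' protocols. The authors deposited 1 table of 19877 genes in FPKM, that is, fragments scaled by gene length and by library size. Per the submitters' processing notes, the builds GRCm38, mm10 and GRCm39 were used. The labels name no aligner, counter or strand setting. Members, lists and tests were chosen with earlier results of these data known.

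A gene was tested where 3 or more of the 6 libraries, of either group, reached 1 FPKM (10311 genes). The values were changed to log2(FPKM + 0.5), a scale that understates the change of low genes, and compared with limma 3.58.1 in R 4.3.3 (two-sided, the prior variance following expression level), with Benjamini-Hochberg adjustment over all tested genes and a threshold of 0.05. Errors are SE after a fold change and SD after an FPKM. The code was tested on simulated data in which few genes changed, equally up and down. That test does not bear on the choice of scaling. Named genes are all members, Ifit1, and of the further list up to 6 called genes in each direction with the smallest p (Mbtps1, Scarb1 and 8 LXR and oxysterol genes were added after their values were seen).

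Depth was read from the values: all 19877 genes came out as whole fragments within 0.002, taking the smallest whole numbers, and fragments of low genes may be understated. Fragments of same-group libraries differed by a chi-square of 3.16 to 12.5 per gene, where 1 is sampling noise, so no library was counted as a repeat. Since the labels give libraries of 1 number the same batch, the number pairs them. Deviations of same-numbered libraries correlated by 0.09, 0.01 and 0.19, and those of differently numbered libraries by −0.17 to 0.11. Alternatives changed the pseudocount, filter, scaling, variance model, test, pairing and libraries. Promoter windows came from RefSeq on GRCm38.p6 for 27 of the 32 genes (38 windows), matched by symbol.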

Additional observations from a re-analysis of the deposited data

How the results depend on the processing

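Under 17 alternatives the SREBP-side genes past the threshold were between 20 and 24 of those tested. In place of 22 lower and 2 higher, 18 were lower and 2 higher under median centring, 20 and 2 of 24 tested at a mean FPKM of at least 5, 22 and 1 after rescaling to TPM and 21 and 1 without the filter. The LXR-side count of 3 fell to 1 with a mean FPKM of at least 5, which leaves 1 gene tested. It was also 1 under quantile normalization and 1 with the level trend removed, where the cause was not tested. Without the filter all 6 LXR-side genes were tested. Of these, 1 rose (Apoe) and 1 fell (Nr1h2), with a median log2 fold change of −0.15. Leaving out 1 library gave an LXR-side count of 2 to 3, an SREBP-side count of 22 to 24, 19 to 24 of the further list, 4335 to 5284 of all tested genes and a log2 fold change of Ifit1 from −1.39 to −1.20. The split of all called genes, 2046 higher and 3209 lower, became 3001 and 2293 under median centring, 2486 and 2256 under quantile normalization, 2684 and 2743 with limma-voom, 1850 and 2042 at a mean FPKM of at least 5 and 1540 and 4035 on TPM values. That of the further list, 4 higher and 20 lower, became 7 and 15 under median centring, 5 and 15 under quantile normalization, 4 and 15 with the level trend removed and 6 and 16 with limma-voom. The sign of Hsd17b7 turned under quantile normalization (0.0207) and with the level trend removed (0.00668), and that of Scap under median centring (0.0405) and limma-voom (0.0162). With batch as a replicate block, 24 SREBP-side genes, 3 LXR-side genes, 24 of the further list and 5229 of all tested genes passed, and the block ended no call of a named gene. Low genes are limited by depth: Nr1h3 rests on at most 27 fragments a library.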
